A study of Mus musculus with 6 samples.

Results

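The 10 genes described here carry out or drive fatty acid synthesis and desaturation: Fasn, Acaca, Acly, Scd1, Scd2, Elovl6, Srebf1, Acsl3, Fads1 and Fads2. They were chosen by gene name, with a rule that uses no measured value, after other results of these data were known, and each has 1 row among the 34745 genes of the deposited table. The RNA came from spermatogonial stem cells of the mouse kept in culture, which are the germ cells that renew themselves and supply sperm production. DBA/2J X c57BL/6J animals at postnatal day 6 were the source, and the lines were used between passages 15 and 20. In 3 libraries the cells were untreated, and in 3 they had received 100 µM bisphenol A (BPA), a plastics monomer studied as an endocrine disruptor, for about 4 days. The titles name no vehicle for the controls and do not say whether replicates were separate cultures, so the spread behind every p-value may be technical.

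Fatty acids are built in the cytosol from acetyl-CoA. ATP citrate lyase makes acetyl-CoA from citrate, acetyl-CoA carboxylase turns it into malonyl-CoA, and fatty acid synthase joins these units into palmitate. Elongases lengthen the chain, and stearoyl-CoA desaturases put in the first double bond. The front-end desaturases FADS1 and FADS2 act on dietary polyunsaturated fatty acids, and acyl-CoA synthetases such as ACSL3 activate free fatty acids for use. SREBP-1, the product of Srebf1, is a membrane-bound transcription factor that is cut and released to switch on most of these genes.

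The promoter table of RefSeq (GRCm38.p6) held 9 windows of 300 bases for 7 of the 10 genes: Fasn, Acaca, Acly, Elovl6, Srebf1, Acsl3 and Fads2. Windows for Scd1, Scd2 and Fads1 were not analysed here. The windows of Fasn, Acly and Fads2 are shown because these 3 abundant genes gave different results under BPA: Fads2 fell, Fasn was below its controls in 2 of 3 libraries, and Acly differed from its controls by less than the spread between replicates. Each runs 5′ to 3′ on the strand of the gene, across the transcription start near its end, and capitals mark matches to the motifs named after it.
Fasn (chr11:120824498-120824797, minus strand): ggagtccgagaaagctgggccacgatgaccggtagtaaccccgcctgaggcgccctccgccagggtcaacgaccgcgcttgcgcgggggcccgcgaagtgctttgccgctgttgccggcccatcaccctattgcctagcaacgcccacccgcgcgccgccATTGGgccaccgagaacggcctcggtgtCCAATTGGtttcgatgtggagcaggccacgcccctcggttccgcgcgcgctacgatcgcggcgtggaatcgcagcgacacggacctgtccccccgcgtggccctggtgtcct
Acly (chr11:100527951-100528250, minus strand): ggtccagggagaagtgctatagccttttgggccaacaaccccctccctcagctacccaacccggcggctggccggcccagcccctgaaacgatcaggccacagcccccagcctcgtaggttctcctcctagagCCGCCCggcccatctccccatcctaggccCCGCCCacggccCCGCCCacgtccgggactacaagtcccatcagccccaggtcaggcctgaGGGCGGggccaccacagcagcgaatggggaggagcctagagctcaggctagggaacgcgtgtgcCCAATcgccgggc
Fads2 (chr19:10101454-10101753, minus strand): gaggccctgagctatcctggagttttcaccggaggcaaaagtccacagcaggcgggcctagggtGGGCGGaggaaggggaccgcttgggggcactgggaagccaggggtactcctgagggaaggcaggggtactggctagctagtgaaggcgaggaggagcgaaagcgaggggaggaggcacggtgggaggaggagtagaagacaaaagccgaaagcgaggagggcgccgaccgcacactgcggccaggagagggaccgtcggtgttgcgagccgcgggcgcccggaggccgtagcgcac
Both strands were searched for the motif CCAAT, bound by NF-Y, for GGGCGG, bound by Sp1, for the E-box CACGTG and for TCACNCCAC, a sterol regulatory element type. The Fasn window held 3 matches to CCAAT, 2 of which overlap on opposite strands. The Acly window held 1 match to CCAAT and 4 to GGGCGG, and the Fads2 window held 1 match to GGGCGG. Of the 9 windows 5 held CCAAT and 5 held GGGCGG, against 37.4% and 35.7% of all 32851 windows of this length. None of the 9 held the E-box or the sterol element as spelled here, which 7.15% and 1.24% of all windows did. A match describes letters in the window and not a bound site.

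Library totals were 13453280 to 22286517 counts. Values are CPM (each gene's counts scaled to a common library total) with scaling by the trimmed mean of M-values (TMM), given as mean ± SD with n = 3 per group. Each log2 fold change sets BPA against untreated and carries its standard error (SE), from edgeR's quasi-likelihood test with Benjamini-Hochberg adjustment over the 13287 genes tested and a threshold of 0.05, called the edgeR adjusted p. All 10 genes passed the low-count filter. BPA replicate 2 stood apart from the other BPA libraries: over 13273 genes its deviation from them correlated with the GC content of the transcript (Pearson r = 0.58 across genes, which are not independent replicates), against -0.30 and -0.39 for BPA replicates 1 and 3, whose deviations are measured in part from replicate 2, and -0.13 to 0.10 for the untreated libraries. Results that rest on it are given with and without it below. Among defining markers, the summed level of 12 germ cell genes was 2157 to 2171 CPM in untreated and 1796 to 2257 CPM in BPA libraries, and none was at 0 in a whole group. The sum hides single genes that moved: Nanos3 (log2 fold change -2.65) and Id4 (-1.004) fell and Sall4 (0.82) rose, with an edgeR adjusted p of 8.5e-06, 0.040 and 0.038, and the other 9 did not pass. The sum of 12 fibroblast genes was 362 to 413 and 276 to 560 CPM, with Fn1 its largest part (206 ± 14.8 and 271 ± 109 CPM). Postn was at 0 in all BPA libraries but had only 0, 5 and 0 counts in the untreated ones. Of 10 fibroblast genes tested, 5 log2 fold changes were above 0 and 5 below, and only Loxl1 was called, as lower (-1.30). The sum of 8 Sertoli cell genes was 20.3 to 25.3 and 30.4 to 53.0 CPM, with Sox9 (8.64 ± 0.55 and 24.5 ± 5.01 CPM) its largest part under BPA. Of 5 Sertoli cell genes tested, 3 log2 fold changes were above 0 and 2 below. Only Sox9 was called, as higher (1.505), and Amhr2 was at -1.91 (edgeR adjusted p = 0.11). Cldn11 and Inha were at 0 in all untreated libraries, but had only 7, 8 and 7 and 0, 11 and 0 counts in BPA libraries. The sum of 6 macrophage genes was 57.3 to 60.6 and 29.8 to 43.3 CPM. Cd68 alone made up most of it (50.9 ± 2.29 and 33.6 ± 8.58 CPM, edgeR adjusted p = 0.14), and neither of the 2 tested genes passed. Ptprc was at 0 in the untreated libraries, with 0, 1 and 0 counts in the BPA ones. Adgre1 and Csf1r were at 0 in the BPA libraries, with 11, 0 and 0 and 0, 0 and 13 counts in the untreated ones. The sum of 6 adipocyte genes, the cells best known for lipogenesis, was 2.59 to 5.08 and 0.979 to 7.78 CPM, with Lep at 0 throughout. The sum of 4 peritubular myoid genes was 20.0 to 24.7 and 18.1 to 29.5 CPM. The sum of 5 Leydig cell genes reached at most 1.31 CPM, and Hsd3b1, Cyp17a1 and Insl3 were at 0 throughout. The part of these marker differences in the results below was not tested. In bulk samples, fewer cells of a type and less RNA per cell cannot be told apart.

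The comparison of BPA with untreated cultures asked how exposure altered these transcripts. Under BPA the desaturase genes Scd2 and Fads2 fell to about 0.51 and 0.58 of their untreated level. No member was called higher in edgeR fitted without a block or correction, although 5 log2 fold changes were above 0. The neighbouring desaturase gene Fads1 lay on the other side, at a fold of 1.45, and did not pass the test. Acly, at one of the highest levels of the set, differed between the groups by less than the spread between replicates. The 2 lower members are 20% of the 10, and 6.28% of all tested genes were called lower. The 0 higher members stand beside 4.37% of all tested genes. At an unadjusted p under 0.05, edgeR gave 4 lower members and 1 higher, against 1658 lower and 1704 higher among all tested genes. DESeq2 called 3 members lower (8.77% of its genes) and 0 higher (7.01%), and limma-voom called 2 lower (6.93%) and 0 higher (3.81%). The median log2 fold change was -0.06 over the members and 0.10 over all tested genes. The groups lay apart without overlap for 4 members, Scd1, Scd2 and Fads2 on the lower side and Acaca on the higher, where this was so for 31.3% of all tested genes.

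**Figure D1:**
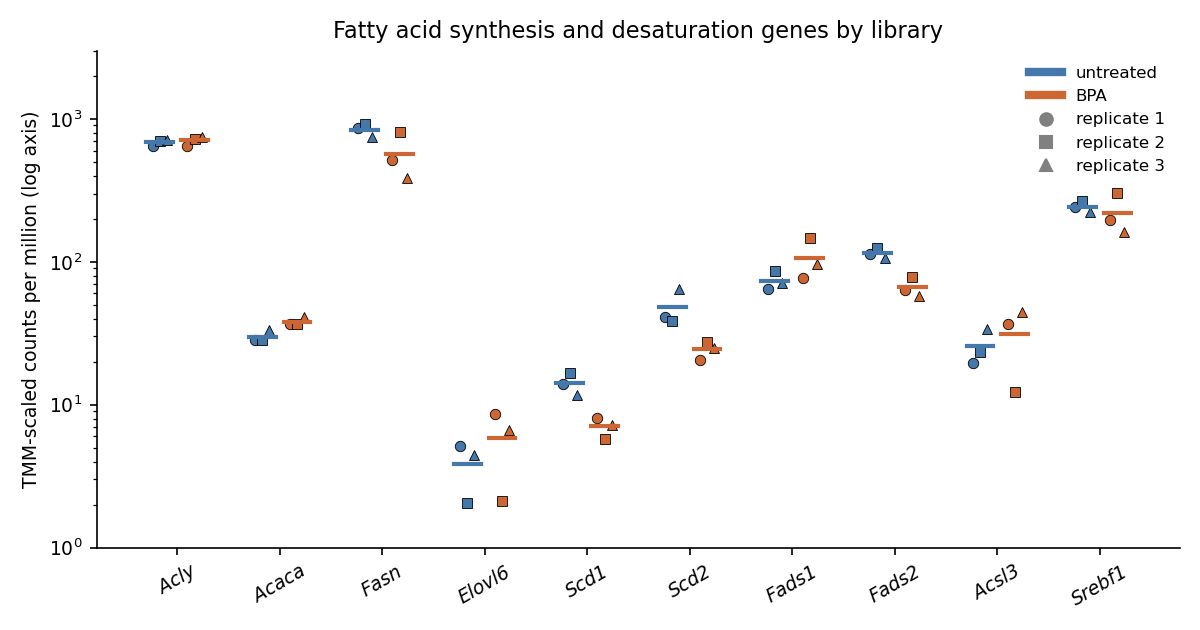
TMM-scaled CPM (log axis) of each gene in each library; symbols are replicates, bars are group means, blue is untreated and orange BPA. Scd1, Scd2 and Fads2 lie lower in all 3 BPA libraries than in any untreated one. The square of BPA replicate 2 is the highest BPA value for Fasn, Srebf1, Fads1, Scd2 and Fads2 and the lowest for Elovl6, Acsl3 and Scd1.

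Levels between genes were compared per kilobase (RPKM, with the gene lengths recovered from the deposited FPKM). In untreated cells Acly (83.9 ± 4.66 RPKM) and Fads2 (75.9 ± 6.59) came first and overlapped, followed by Fasn (60.5 ± 6.10). Srebf1 (26.5 ± 2.36) and Fads1 (21.3 ± 3.24) overlapped, and Scd2 (8.84 ± 2.62 RPKM) lay below both. Acsl3 (3.98 ± 1.14) and Scd1 (2.92 ± 0.53) overlapped, above Acaca (1.48 ± 0.15) and Elovl6 (0.35 ± 0.15 RPKM). Under BPA the means kept Acly first (86.3 ± 6.11 RPKM) and Elovl6 last (0.53 ± 0.30), while Fads2, Fasn, Fads1 and Srebf1 overlapped their neighbours at 44.0 to 23.9 RPKM. The rank of Fads2 depends on the gene length: the deposited value is 1508 bases and the exons in GENCODE vM21 add up to 3295, which puts Fads2 in untreated cells at 34.7 ± 3.02 RPKM, behind Acly, Fasn and Srebf1. Other lengths differ too, such as those of Acly (8190 and 5279 bases) and Srebf1 (9203 and 5634), and some overlaps above change. With the GENCODE vM21 lengths, untreated Srebf1 (43.2 ± 3.85 RPKM) lay above Fads1 (15.3 ± 2.33) without overlap. Acsl3 (5.90 ± 1.69) then lay above Scd1 (2.89 ± 0.52) and overlapped Scd2 (8.82 ± 2.61). Under BPA, Fads2 (20.1 ± 3.20) came behind Acly, Fasn, Srebf1 and Fads1. The length does not touch the comparison of a gene with itself between groups.

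Acly, encoding ATP citrate lyase (ENSMUSG00000020917, chromosome 11, 100476353 to 100528000, mm10), was at 644, 701 and 717 CPM in untreated replicates 1 to 3 and at 651, 720 and 748 CPM in BPA replicates 1 to 3. The groups overlapped almost fully, and the log2 fold change was 0.04 (SE 0.13, 95% interval -0.24 to 0.32, edgeR adjusted p = 0.88). The interval leaves out a change of the size seen for Fads2 in either direction.

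Acaca, encoding acetyl-CoA carboxylase, the committed step of the pathway (ENSMUSG00000020532, chromosome 11, 84129672 to 84401651), was at 28.2, 28.3 and 33.4 CPM in untreated and 36.4, 36.7 and 41.2 CPM in BPA libraries. All BPA values were above all untreated ones, but the difference did not pass (log2 fold change 0.35, SE 0.23, edgeR adjusted p = 0.38), and it was -0.06 once the libraries had been corrected for GC content and length. The correction also takes out differences between the groups that follow GC content or length. The counts of Acaca are uncertain, because 52.6% of the 50-base stretches of its longest transcript also occur in Gm5182. No gene of that name has a row among the deposited counts. How the authors' counting treated reads from shared stretches is not given in the sources used here.

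Fasn, encoding fatty acid synthase (ENSMUSG00000025153, chromosome 11, 120805846 to 120824547), was at 858, 919 and 751 CPM in untreated replicates 1 to 3. In BPA replicates 1 to 3 it was at 516, 806 and 386 CPM. BPA replicates 1 and 3 lay below every untreated library, and BPA replicate 2 lay inside the untreated range. With all libraries the change did not pass (log2 fold change -0.57, SE 0.22, 95% interval -1.04 to -0.09, edgeR adjusted p = 0.13). Without BPA replicate 2 it was -0.90 (SE 0.13, edgeR adjusted p = 0.00054), and after the GC content and length correction -0.64 (SE 0.12, edgeR adjusted p = 0.0042). DESeq2 put Fasn just past the threshold (adjusted p = 0.0499). The range of the adjusted p over all alternatives was 0.00054 to 0.37.

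Elovl6, an elongase that extends palmitate, was the rarest member (chromosome 3, 129532355 to 129638495). It had 94, 26 and 61 counts in untreated and 132, 43 and 164 counts in BPA libraries, or 5.15, 2.04 and 4.43 against 8.64, 2.13 and 6.69 CPM. The groups overlapped, with replicate 2 lowest in both. The log2 fold change was 0.58 with a 95% interval from -0.83 to 1.99, and the difference did not pass (edgeR adjusted p = 0.63). Leaving out BPA replicate 2 gave 0.98, and the GC content and length correction gave 0.05, neither past the threshold. Of its 50-base stretches 4.59% occur in other genes.

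The stearoyl-CoA desaturases make monounsaturated fatty acids and stand in one cluster on chromosome 19. Scd2 (ENSMUSG00000025203, 44293676 to 44306864) was at 41.3, 38.7 and 64.6 CPM in untreated and 20.7, 27.6 and 25.0 CPM in BPA libraries. Every BPA library was below every untreated one, and untreated replicate 3 was the highest by a wide margin. Scd2 fell from 48.2 ± 14.3 to 24.4 ± 3.50 CPM, with a log2 fold change of -0.98 (SE 0.27, edgeR adjusted p = 0.037). Leaving out any single library except BPA replicate 2 ended the call (adjusted p 0.066 to 0.17 in edgeR). Without untreated replicate 3 the change was -0.67. It was also lost with scaling by library size alone (0.058).

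Scd1 (ENSMUSG00000037071, 44394451 to 44407709) was at 14.03, 16.7 and 11.6 CPM in untreated and 8.12, 5.75 and 7.26 CPM in BPA libraries, again with no overlap. Its log2 fold change of -1.003 was as large as that of Scd2 but less precise, at 116 to 256 counts per library (SE 0.37, 95% interval -1.80 to -0.20, edgeR adjusted p = 0.11). It passed after the GC content and length correction (-1.27, SE 0.34, edgeR adjusted p = 0.025). The log2 ratio of Scd1 to Scd2 per kilobase within a library was -1.57 ± 0.65 in untreated and -1.63 ± 0.46 in BPA cultures, so no shift in the balance of both genes was detectable. The difference of -0.05 had an exact two-sided permutation p of 0.9, where 3 against 3 cannot go below 0.1, and its sign turned to 0.04, 0.22 and 0.18 when untreated replicate 1, untreated replicate 2 and BPA replicate 2 were left out in turn. Of the 50-base stretches of Scd1 and Scd2, 4.66% and 4.01% are shared with other genes, mainly with other Scd genes. Scd3 was at 3.99 ± 2.60 and 3.95 ± 1.57 CPM (log2 fold change -0.02, edgeR adjusted p = 0.99), and Scd4 had too few counts to be tested.

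Fads2 encodes the first desaturase of polyunsaturated fatty acid synthesis, and Fads1 acts later in the same route. They are neighbours on chromosome 19, at 10064164 to 10101503 and 10182888 to 10196870, transcribed in opposite directions. Fads2 (ENSMUSG00000024665) was at 112, 125 and 106 CPM in untreated and 63.0, 78.1 and 57.8 CPM in BPA libraries, with a clear gap between the groups. It fell by 0.79 on the log2 scale (SE 0.19, 95% interval -1.19 to -0.38, edgeR adjusted p = 0.020). Leaving out untreated replicate 1, untreated replicate 2, BPA replicate 1 or BPA replicate 3 ended the call (edgeR adjusted p 0.085 to 0.11). After the GC content and length correction it was -0.45 and still passed (SE 0.13, edgeR adjusted p = 0.038), a log2 change smaller by more than 1.5 times.

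Fads1 (ENSMUSG00000010663) was at 64.1, 85.9 and 70.8 CPM in untreated and 77.4, 146 and 96.5 CPM in BPA libraries. BPA replicate 2 was far above the rest, and BPA replicate 1 lay inside the untreated range. The change did not pass (log2 fold change 0.54, SE 0.24, 95% interval 0.02 to 1.05, edgeR adjusted p = 0.18), and it was 0.24 without BPA replicate 2. The ratio of Fads1 to Fads2 per kilobase was 0.249, 0.2996 and 0.292 in untreated replicates 1 to 3. It was 0.537, 0.816 and 0.728 in BPA replicates 1 to 3. All BPA libraries were above all untreated ones. The level of this ratio rests on the deposited lengths: with the GENCODE vM21 lengths the mean Fads1 and Fads2 were 15.3 and 34.7 RPKM in untreated and 22.2 and 20.1 RPKM in BPA cultures, while the log2 difference between the groups does not depend on length. On the log2 scale the mean went from -1.84 ± 0.15 to -0.55 ± 0.31, a difference of 1.29 (exact two-sided permutation p = 0.1, the smallest that 3 against 3 allows). It was 1.16 to 1.465 without each library in turn, and 2 such ratios were tested (Benjamini-Hochberg adjusted p = 0.2 and 0.9).

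**Figure D2:**
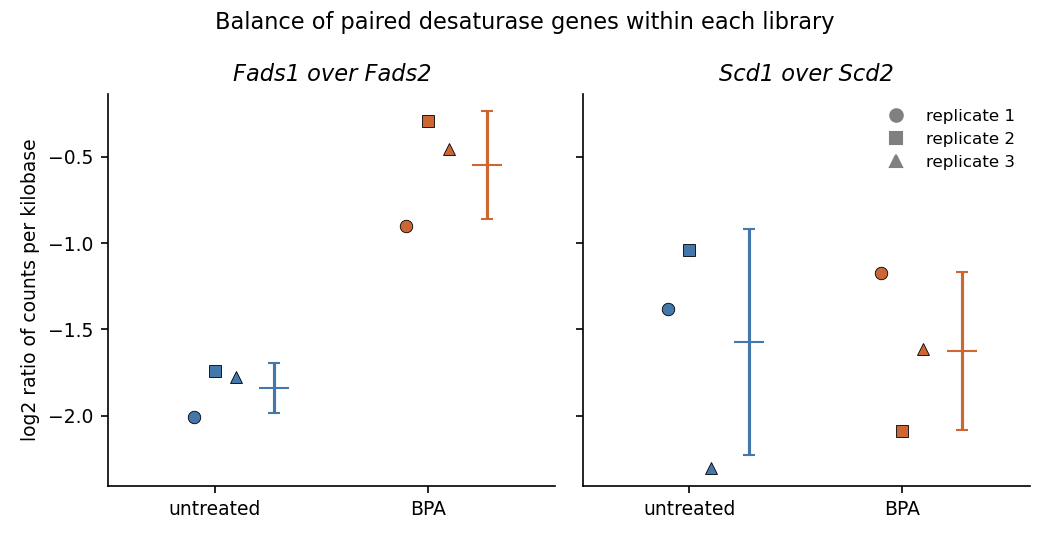
Log2 ratio of counts per kilobase (deposited gene lengths) within each library for Fads1 over Fads2 (left) and Scd1 over Scd2 (right); symbols are replicates and the bars beside them the group mean ± SD. The Fads1 over Fads2 ratio is higher in all 3 BPA libraries than in any untreated one, while the Scd1 over Scd2 ratio overlaps between the groups.

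Acsl3, an acyl-CoA synthetase of the endoplasmic reticulum and lipid droplets (chromosome 1, 78657825 to 78707743), was at 19.7, 23.5 and 33.9 CPM in untreated and 36.9, 12.2 and 44.5 CPM in BPA libraries. BPA replicates 1 and 3 were above every untreated library and BPA replicate 2 was below all of them. The log2 fold change was 0.28 (SE 0.41, edgeR adjusted p = 0.73), 0.67 without BPA replicate 2 (edgeR adjusted p = 0.11) and -0.17 after the GC content and length correction. In GENCODE vM21 5.60% of its exon length overlaps Utp14b.

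Srebf1 (ENSMUSG00000020538, chromosome 11, 60199089 to 60222581) was at 241, 266 and 223 CPM in untreated and 195, 304 and 161 CPM in BPA libraries. BPA replicate 2 was the highest of all 6 libraries and BPA replicates 1 and 3 the lowest. The log2 fold change was -0.15 (SE 0.21, 95% interval -0.61 to 0.31, edgeR adjusted p = 0.72). Without BPA replicate 2 it was -0.45 and passed (SE 0.13, edgeR adjusted p = 0.025), and without BPA replicate 3 it was 0.04. Srebf1 has several promoters, of which the RefSeq table holds 3 windows, and counts per gene do not separate their transcripts. Of its exon length 3.11% overlaps other genes, among them Rai1.

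The deviation of BPA replicate 2 from the mean of the other BPA libraries ran from -1.78 on the log2 scale for Elovl6 and -1.72 for Acsl3 to 0.78 for Srebf1 and 0.85 for Fasn. The first pair have transcripts of 44.0% and 43.2% GC, the second of 58.4% and 57.9%. Over the 10 members Pearson's r of this deviation with GC content was 0.90, a description of 10 genes from the same libraries. With the correction, 4 members were called lower (Fasn, Scd1, Scd2 and Fads2), where 9.20% of all tested genes were, and 0 higher (6.80%). Leaving BPA replicate 2 out also gave 4 (Fasn, Scd2, Srebf1 and Fads2), where 11.7% of all tested genes were called lower, and 0 higher (8.81%). Scd2 and Fads2 were called lower in both of these fits and with all 6 libraries, at -1.07 and -0.92 without BPA replicate 2. Other settings are read against their own background. Scaling by library size called 1 member lower, Fads2 (5.92%), and 0 higher (6.25%). With no low-count filter 3 were lower (5.29%) and 0 higher (4.92%), and with upper quartile scaling 0 were higher (4.68%). At an FDR of 0.01, 0 were lower (2.42%). A replicate block gave 3 lower (7.41%), and the block with the correction 4 lower (9.64%) and 1 higher, Fads1 (6.93%). Without untreated replicates 1 to 3 in turn, 0, 0 and 1 members were lower (2.06%, 2.31% and 3.44%) and 0 higher (1.18%, 1.41% and 2.44%). Without BPA replicate 1 or 3, 0 were lower (2.51% and 3.08%) and 0 higher (1.64% and 2.15%).

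**Figure D3:**
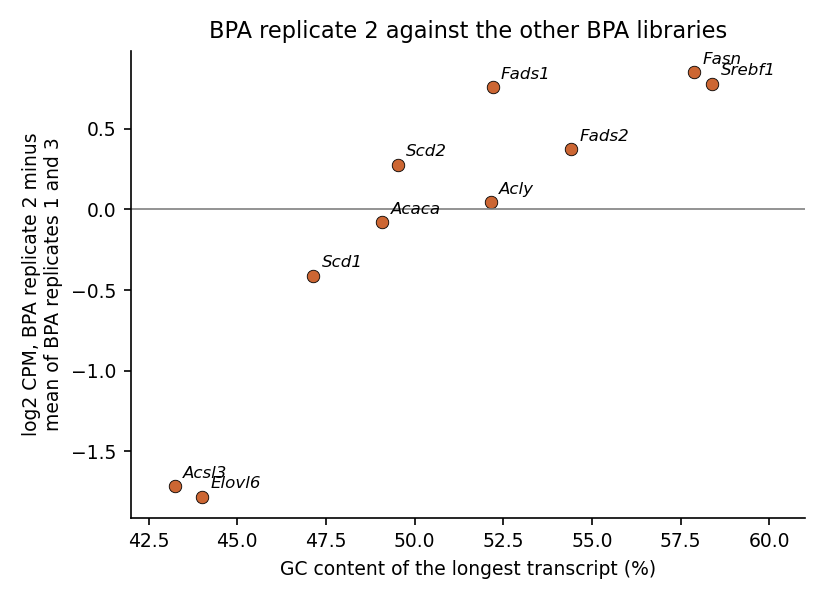
Difference in log2 CPM between BPA replicate 2 and the mean of BPA replicates 1 and 3 (vertical) against the GC content of the longest transcript in percent (horizontal), 1 point per gene. Acsl3 and Elovl6, lowest in GC, lie near -1.7 and -1.8, and Fasn and Srebf1, highest in GC, near 0.8.

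**Figure D4:**
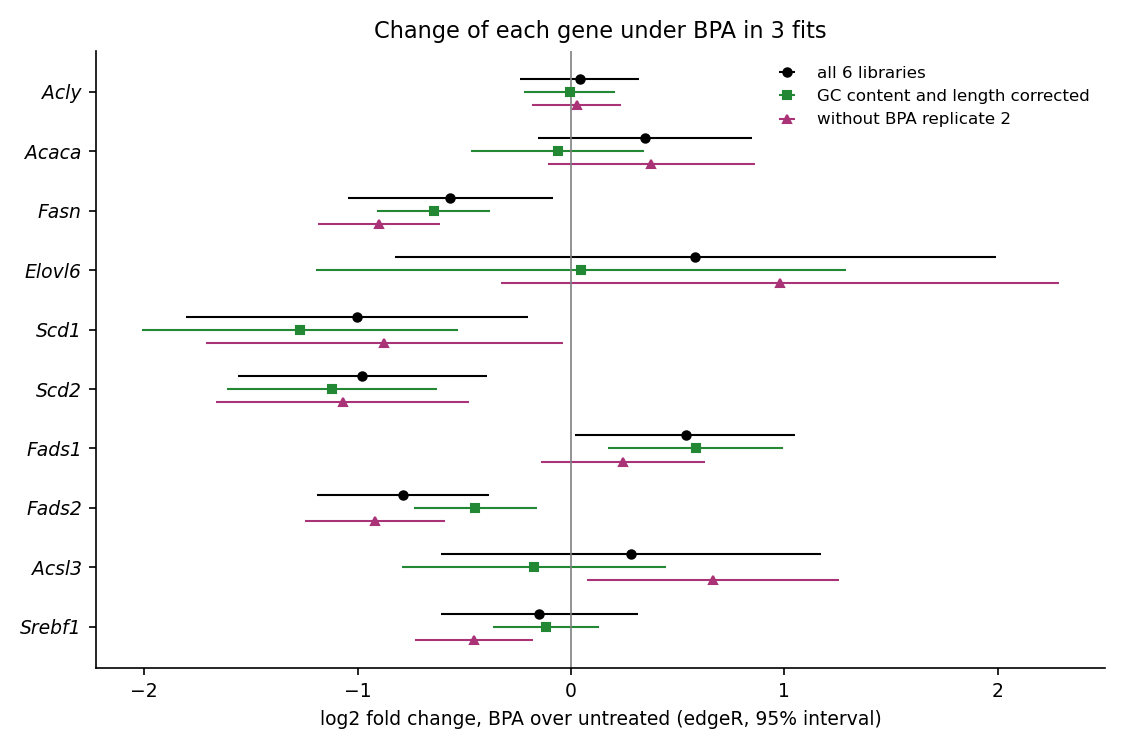
Log2 fold change of each gene, BPA over untreated, with 95% intervals from edgeR: all 6 libraries (black), with the GC content and length correction (green) and without BPA replicate 2 (purple). Fasn, Scd1, Scd2 and Fads2 lie below 0 with their whole interval in all 3 fits, of which only Scd2 and Fads2 passed the adjusted threshold in each, Acly stays near 0, and Acaca and Acsl3 change side with the correction.

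By rule, the 5 genes outside the set with the profile most like Fasn over the 6 libraries were 5031439G07Rik, Map1s, Pex6, Arhgdia and Mau2, with a Pearson r of log2 CPM of 0.995 to 0.998. These values share the libraries, their grouping and their depth, and they were chosen as the highest of all tested genes.

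Beyond the 10 members, 27 of 32 listed genes of fatty acid synthesis, elongation, desaturation and activation could be tested: 1 rose and 4 fell, where 4.37% and 6.28% of all tested genes did, with a median log2 fold change of 0.06 against 0.10 for all tested genes. Slc25a1, the carrier that exports citrate from mitochondria for ATP citrate lyase, was at 325, 322 and 244 CPM in untreated and 107, 139 and 103 CPM in BPA libraries. It fell by 1.35 on the log2 scale (SE 0.18, edgeR adjusted p = 0.00071). Acsbg1, an acyl-CoA synthetase, was at 189, 191 and 180 CPM in untreated and 74.9, 101 and 71.4 CPM in BPA libraries, and fell by 1.18 (SE 0.18, edgeR adjusted p = 0.0016). Both sets of values lay well apart. Mid1ip1, whose product promotes polymerisation of acetyl-CoA carboxylase, was at 3.62, 3.61 and 2.32 CPM in untreated and 15.0, 15.0 and 12.2 CPM in BPA libraries, and rose by 2.14 (SE 0.42, edgeR adjusted p = 0.0075). These 3 genes passed without each library in turn. Tecr, the last reductase of chain elongation, fell by 0.64 on the log2 scale (edgeR adjusted p = 0.032). Leaving out untreated replicate 1, untreated replicate 2, BPA replicate 1 or BPA replicate 3 ended that call (0.12 to 0.16), as did the GC content and length correction (-0.26, 0.090). The other gene that fell, Elovl1, an elongase of very long chains named after its values were seen, was at -0.86 (edgeR adjusted p = 0.048) and lost the call without any library other than BPA replicate 2 (0.099 to 0.18) and with library size scaling (0.056). Without BPA replicate 2 the list had 3 higher and 6 lower genes, where 8.81% and 11.7% of all tested genes were, and it had 2 lower when any of the 4 libraries just named for Tecr was left out.

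Of 20 genes that control the programme, 3 fell and 0 rose, where 6.28% and 4.37% of all tested genes did, with a median of -0.22. The number higher was 0 also at an unadjusted p under 0.05 in edgeR, against 1704 among all 13287 tested genes. It was 0 in DESeq2 (7.01% of its genes) and limma-voom (3.81%) too. Srebf2, the SREBP that mainly serves cholesterol synthesis, was at 912, 1021 and 818 CPM in untreated and 473, 725 and 402 CPM in BPA libraries, without overlap. It fell by 0.78 on the log2 scale (SE 0.20, edgeR adjusted p = 0.027). The oxysterol receptor gene Nr1h2, which encodes LXR beta, fell by 0.87 (SE 0.21, edgeR adjusted p = 0.020). Srebf2 lost the call when any of the same 4 libraries as for Fads2 was left out (0.093 to 0.13), and Nr1h2 without any library other than BPA replicate 2 (0.052 to 0.098). Scap and Insig1, which escort and retain SREBP, were at -0.28 and -0.25 and did not pass (edgeR adjusted p = 0.41 and 0.59), nor did the protease gene Mbtps1, at -0.04. Lower calls numbered 6 without BPA replicate 2, where 11.7% of all tested genes were lower, and 2 without untreated replicate 3 and 1 without any other single library.

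Of 19 genes of glycerolipid assembly and lipid droplets tested, 2 fell and 0 rose, with a median of 0.19. Of all tested genes 6.28% fell and 4.37% rose, so the share that fell is near the background. At an unadjusted p under 0.05 edgeR gave 3 higher and 3 lower, against 1704 higher and 1658 lower among all 13287 tested genes. DESeq2 called 2 higher (7.01% of its genes) and limma-voom 0 (3.81%). The acyltransferase genes Agpat2 and Agpat4, which make phosphatidic acid, fell by 0.995 and 0.81 on the log2 scale (edgeR adjusted p = 0.042 and 0.047). Both lost the call without any library other than BPA replicate 2 (0.069 to 0.18 and 0.080 to 0.19) and with library size scaling (0.063 and 0.061), and Agpat2 also after the GC content and length correction (0.077). Lower calls numbered 4 without BPA replicate 2, where 11.7% of all tested genes were lower, and 0 without any other single library. Dgat2, which completes triglyceride, went from 88.5 ± 4.61 to 130.2 ± 18.6 CPM and did not pass (a log2 difference of 0.56, SE 0.17, edgeR adjusted p = 0.059). Plin2, the coat protein of lipid droplets, was at 180.4 ± 25.3 and 220.3 ± 12.0 CPM (edgeR adjusted p = 0.28). Dgat2, Plin2, Scap, Insig1 and Mbtps1 were named after their values were seen.

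**Figure D5:**
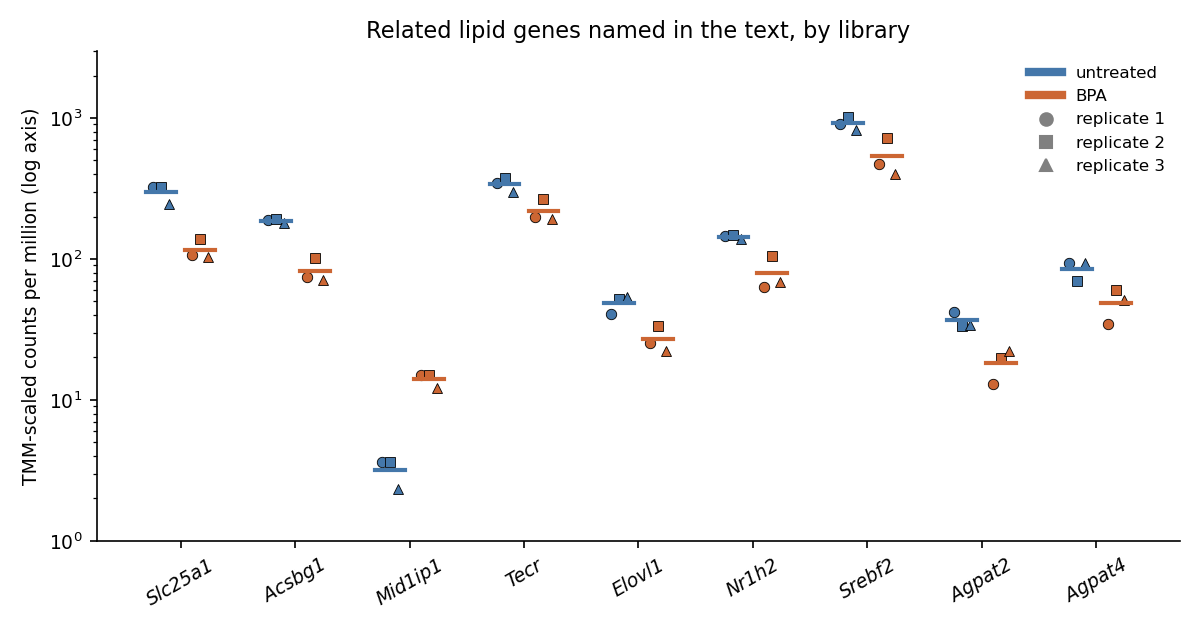
TMM-scaled CPM (log axis) of the related lipid genes named in the text that passed the threshold, by library; symbols are replicates, bars group means, blue untreated and orange BPA. Mid1ip1 is higher in all 3 BPA libraries, and the other 8 genes are lower in all 3 BPA libraries than in any untreated one.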

How the data were processed

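The authors deposited whole-number counts per gene beside FPKM, and each column was matched to a sample by the code in its title. The submitters' processing notes list TopHat2 2.0.9, HTSeq and mm10. Neither the annotation release nor a strand setting for HTSeq is stated in the sources used here, and the TruSeq RNA kit of the labels' protocols does not mark strand. The deposited FPKM values served only to recover gene lengths (largest relative deviation between libraries 0.00092). All tests used the deposited counts. They were filtered with filterByExpr, scaled by TMM and fitted over the whole table without a block (edgeR 4.0.16, R 4.3.3). The SE is the log2 fold change over the square root of F. Replicates differed by more than sampling noise (chi-square per degree of freedom 19.6 to 91.1).

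Alternatives were DESeq2 1.42.0, limma-voom (limma 3.58.1), other scalings and filters, a stricter FDR, a replicate block, leaving out each library, and a lowess correction (span 0.3) for GC content and length. GC content came from the longest GENCODE vM21 transcript (99.9% of tested genes).

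The members and lists were chosen with earlier results of these data known. All members were named, and from each related list the called genes of smallest adjusted p, at most 4. The list gene Gpat3 did not match a name in the table, and 1 gene that passed, counted in its list, is not reported here. Intervals of the fits cover the spread between libraries, and the ratio tests were exact permutation tests.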

Additional observations from a re-analysis of the deposited data

How the results depend on the processing

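The direction of Fasn, Scd1, Scd2, Fads1 and Fads2 was kept under all 17 alternatives, and so was that of Elovl6. Among these, the FDR of 0.01 changes only the threshold, so its fold changes could not differ. Elovl6 was close to 0 with the GC content and length correction, at 0.05 (SE 0.57), and at 0.03 (SE 0.56) with the block added. The number of members called lower was 2 in the fit of the report, 1 with library size scaling, 0 at an FDR of 0.01, 4 with the GC content and length correction and 0 to 4 without each library in turn. It was 0 without untreated replicate 1, untreated replicate 2, BPA replicate 1 or BPA replicate 3, 1 without untreated replicate 3 and 4 without BPA replicate 2. The number higher stayed at 0 without each library in turn. Reversals among members that did not pass were Acaca at -0.062, Acly at -0.007 and Acsl3 at -0.174 with the GC content and length correction. Without each library in turn Acly ranged from -0.003 to 0.115, Srebf1 from -0.454 to 0.037, Acsl3 from -0.065 to 0.667 and the log2 ratio of Scd1 to Scd2 from -0.416 to 0.216. The cause was not tested. The ratio of Fads1 to Fads2 kept its direction and size in all of its 7 alternatives. The GC content and length correction was not among these. In edgeR it left Fads1 at 0.58 and moved Fads2 from -0.79 to -0.45, so the size of the ratio under it was not tested.

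Among other synthesis genes the number lower was 2 at an FDR of 0.01 and 2 to 6 without each library in turn. The number higher was 2 in DESeq2 and with no low-count filter, and 1 to 3 without each library in turn. Lipogenic control genes had 1 lower at an FDR of 0.01 and 1 to 6 without each library in turn. Glycerolipid genes had 0 lower with library size scaling and at an FDR of 0.01, 1 with the GC content and length correction and 0 to 4 without each library in turn. The number of glycerolipid genes higher was 1 with upper quartile scaling and 2 with DESeq2, library size scaling or no low-count filter. It was 3 with the GC content and length correction, and 0 to 1 without each library in turn. Of all tested genes, 4.68%, 7.01%, 6.25%, 4.92%, 6.80% and 1.18% to 8.81% were higher in these fits, in the order named. Called lower were 2.42% at an FDR of 0.01 and 5.92% with library size scaling. The correction gave 9.20% lower, and leaving out each library 2.06% to 11.7%. Library size scaling shifted the median over all tested genes from 0.10 to 0.21 (log2), and over all genes 831 were then higher and 786 lower, in place of 580 and 835.

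The titles number the replicates 1 to 3 in both groups and do not say whether the numbers pair the samples. Correlations of deviations from the group means were weak for same-numbered libraries, at -0.02, 0.06 and 0.07. For libraries of different number they were -0.08 to 0.03, and 4 of 6 libraries correlated best with their own number. With 3 libraries per group these values cannot decide whether the samples are paired. A replicate block gave 3 members lower, Fasn (-0.63, edgeR adjusted p = 0.022) joining Scd2 and Fads2, and 1706 calls over all genes in place of 1415. The replicate block with the GC content and length correction gave 4 members lower and 1 higher (Fads1), where 9.64% and 6.93% of all tested genes were. It also gave 1 lipogenic control gene higher, and 1 glycerolipid gene lower and 3 higher. In that fit Acaca was at -0.062, Acly at -0.011 and Acsl3 at -0.215.

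The members with the fewest counts were Elovl6 (26 to 164 per library, SE 0.65) and Scd1 (116 to 256, SE 0.37). The SE did not follow the counts alone, since Acsl3 had 247 to 1092 counts and an SE of 0.41. The part of depth in these errors was not tested.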

Other observations

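Within 100 kb of Fads1 or Fads2, 10 genes could be tested. They were looked at after the opposite values of both desaturase genes had been seen. The gene order by the deposited loci is Fth1, Best1, Rab3il1, Fads3, Fads2, Fads1, Fen1, Tmem258, Myrf and Dagla. Myrf, which encodes a membrane-bound transcription factor and lies beyond Fads1, rose from 30.9, 34.1 and 21.2 CPM to 55.8, 74.3 and 41.6 CPM, a log2 difference of 0.99 (SE 0.28, edgeR adjusted p = 0.039). Only leaving out BPA replicate 3 kept this call among the 6 libraries (adjusted p 0.035 to 0.125 over all 6). Dagla, next to Myrf, was at 0.90 and did not pass (edgeR adjusted p = 0.21). Tmem258, a subunit of the oligosaccharyltransferase, lies between Fads1 and Myrf and fell by 1.76 on the log2 scale (SE 0.29, edgeR adjusted p = 0.0030), a call kept without each library in turn (highest edgeR adjusted p = 0.037). Its locus overlaps that of Fen1 at one end, and without strand the reads there cannot be told apart. Fads3, on the other side of Fads2, was at -0.74 and did not pass (SE 0.32, edgeR adjusted p = 0.17). Of the 10 genes, 1 was called higher and 2 lower, one of them Fads2 itself, where 4.37% and 6.28% of all tested genes were.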
